A study of Mus musculus with 2 samples.

Results

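Adrenomedullin, the peptide encoded by Adm, and the genes for the parts of its receptor were followed across the cell types of the Isl1 lineage in control and Pik3caH1047R mouse embryos. The 5 genes Adm, Calcrl, Ramp1, Ramp2 and Ramp3 were taken by their symbols from the 32285 genes in the deposited count tables, and each symbol matched 1 gene identifier. All 5 were detected in both libraries, so no member was lost to a filter. They are described in the 6272 cells with more than 2000 and fewer than 9000 detected genes and less than 10% mitochondrial UMIs (unique molecular identifiers, each counted once per captured RNA molecule).

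Adrenomedullin is a secreted vasodilator peptide of the calcitonin gene-related peptide (CGRP) family. Its receptor is the G protein-coupled receptor CALCRL, which reaches the cell surface only together with a receptor activity-modifying protein: RAMP2 or RAMP3 make it an adrenomedullin receptor and RAMP1 makes it a CGRP receptor, and binding raises cyclic AMP through the stimulatory G protein. Adm, Calcrl and Ramp2 are each known to be required in the mouse embryo for normal blood and lymphatic vessels, and Adm is a classical gene induced by low oxygen.

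The control embryos were Isl1-Cre;R26R-eYFP and the mutant embryos were Isl1-Cre;R26R-eYFP;Pik3caH1047R, both at E13.5, and the study asked how the mutation acts in cells of the cardiopharyngeal mesoderm, the Isl1-expressing progenitor field of the heart and the head and neck. Pik3caH1047R is an activating mutation of the PI3-kinase p110α subunit, carried here as a transgene at Rosa26 behind a loxP-flanked stop. Cre from the Isl1 locus removes that stop and the one before eYFP, so all cells of the lineage, and not only the endothelial cells (ECs), can carry the mutation. In each genotype 3 eYFP-positive embryos were pooled, the tissue above the liver was dissociated, and live eYFP-positive cells were sorted and sequenced as 1 library with a 10x Genomics 5′ kit. Animals were on a mixed background of C57BL/6J and ICR.

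With 1 library per genotype, the genotypes could not be tested against each other. Levels are counts per 1000000 UMIs of a cell class in a library (CPM). Each value below has a 95% interval that covers counting error only, and a difference described as beyond counting error is a difference between these 2 libraries. Median depth was 20412 UMIs over 2783 kept control cells and 16839 UMIs over 3489 kept mutant cells, and 28 deposited barcodes occurred in both. The libraries also stood apart in sex. Cells with Xist and no Y-linked UMI, called female-like here, were 95.5% of the control cells and 33.6% of the mutant cells, whereas cells with Y-linked UMIs and no Xist, called male-like, were 0.0359% and 53.3%. Genotype and embryo sex could therefore not be told apart in the full libraries, and for the compared classes the values in female-like cells alone are given beside the results that differ beyond counting error. Cell classes were named from marker genes, and 7 classes with at least 50 cells in each library were compared. The class named EC-like, with 157 control and 739 mutant cells, held all 12 endothelial markers in both libraries, at a summed level of 5979 CPM in the control and 5970 in the mutant. Its share of cells also depends on what was dissected and sorted.

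The Adm gene lies on chromosome 7 of GRCm38 at 110627661 to 110629820, plus strand (ENSMUSG00000030790). Calcrl lies on chromosome 2 at 84330626 to 84425411, minus strand (ENSMUSG00000059588). Ramp1 lies on chromosome 1 at 91179822 to 91225196 (ENSMUSG00000034353), Ramp3 on chromosome 11 at 6658521 to 6677475 (ENSMUSG00000041046) and Ramp2 on the same chromosome at 101246028 to 101259546 (ENSMUSG00000001240), each on the plus strand. The 250 bases before the start of Adm (chr7:110627407-110627656, GRCm38.p6, plus strand) are shown as in the RefSeq table because Adm had the largest difference of the 5 genes in EC-like cells and is the member best known as an oxygen-regulated gene. Capitals mark matches to the core letters of the hypoxia response element, ACGTG or GCGTG, searched on both strands; no match overlapped another.
Adm promoter: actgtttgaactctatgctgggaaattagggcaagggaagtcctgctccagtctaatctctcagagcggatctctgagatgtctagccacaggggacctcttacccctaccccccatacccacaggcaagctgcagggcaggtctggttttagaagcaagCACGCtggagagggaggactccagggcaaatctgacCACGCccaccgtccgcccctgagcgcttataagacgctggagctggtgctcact
This window held 2 matches, which start 90 and 54 bases before the RefSeq start, the base right after the window, and read GCGTG on the minus strand. The same search found 2 matches before Ramp3 and 0 before Ramp1 and Calcrl. Of 32817 promoter windows of this length, 38.6% held at least 1 match and 16.7% held 2 or more. The table has no entry for Ramp2.

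Adm, the ligand, was scarce in the control library and abundant in the mutant library. In EC-like cells it had 27 UMIs in 157 control cells, or 7.89 CPM (95% interval 5.20 to 11.5), and 2805 UMIs in 739 mutant cells, or 191 CPM (184 to 198). The counting intervals did not overlap, and the ratio of mutant over control was 24.2 (16.6 to 36.7), a log2 ratio of 4.59. Of the 14372 genes with at least 20 UMIs in this class, 15 had a higher ratio than Adm, and 8.63% were past a 2-fold higher level in the mutant, as were Adm and Calcrl among the 5 members. In female-like cells alone Adm stood at 8.56 CPM in the control and 162 in the mutant, so the log2 ratio was 4.24 (3.69 to 4.85) there.

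Outside the EC-like cells, the other 6 classes also held Adm at a higher level in the mutant library, in 5 of them beyond counting error. In branchial muscle-like cells, the skeletal muscle lineage of the pharyngeal arches, the level was 1.37 CPM in the control and 26.7 in the mutant, a log2 ratio of 4.29 (3.77 to 4.85). In epithelium-like cells it was 2.19 and 24.8, with a log2 ratio of 3.50 (2.54 to 4.66). The mesenchyme-like cells had a control level of 4.68 and a mutant level of 24.7, a log2 ratio of 2.40 (1.94 to 2.89). In mesothelium-like cells 2 control UMIs and 36 mutant UMIs put the log2 ratio at 5.14, between 3.19 and 8.24. No control UMI was found in 54 cardiomyocyte-like cells, against 65 in 184 mutant cells. With 3 UMIs set in place of that 0, Adm was 5.77-fold higher in the mutant. The lower counting limit, taken from the 0 as counted, was 4.56-fold. Taken as a class, neuron-like cells were the exception, at 8.35 CPM in the control and 11 in the mutant. Their log2 ratio of 0.40 had an interval that held 0 (-0.19 to 1.03). Adm was higher in the mutant in the finer neuron clusters given below for Calcrl. Those led by Neurod1 and Ppp1r17 had 1 and 31 Adm UMIs (4.02, 1.44 to 9.37). Those led by Igfbpl1 and Dcc had 0 and 27. The lower counting limit of their log2 ratio, taken from the 0 as counted, was 1.29. Most of the 33 control UMIs of the class thus lay outside these clusters, and the 33 lay in 10 cells. Values in female-like cells alone are not given for the finer clusters. In female-like cells alone Adm was higher beyond counting error in branchial muscle-like (log2 ratio 3.12) and mesenchyme-like cells (1.81). The interval held 0 in epithelium-like (1.29, -0.12 to 2.74) and neuron-like cells (-0.47, -1.28 to 0.33). Mesothelium-like cells had 2 and 1 UMIs among 68 and 23 female-like cells. Cardiomyocyte-like cells had 0 and 1 among only 11 and 12. The UMIs of these last classes were too few for a ratio. Over all genes with at least 20 UMIs, the share past a 2-fold higher level in the mutant was 9.46% in branchial muscle-like, 5.78% in cardiomyocyte-like, 5.4% in epithelium-like, 3.95% in neuron-like, 5.41% in mesenchyme-like and 11% in mesothelium-like cells.

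The order of the classes by Adm changed between the libraries. In the control, neuron-like cells (8.35 CPM), EC-like cells (7.89) and mesenchyme-like cells (4.68) were highest, and the intervals of each neighbouring pair overlapped. In the mutant, EC-like cells at 191 CPM stood above every other class, and no other interval reached theirs. The next classes were mesothelium-like at 32.5 (22.8 to 45.1), branchial muscle-like at 26.7 (24.5 to 29.1), epithelium-like at 24.8 (20.8 to 29.4), mesenchyme-like at 24.7 (21.4 to 28.4) and cardiomyocyte-like at 19.99 (15.4 to 25.5), each overlapping its neighbour. Neuron-like cells came last at 11 (8.82 to 13.6), below the cardiomyocyte-like interval. That order is of the full mutant library. In its female-like cells the EC-like class was again highest at 162 CPM, followed by mesenchyme-like (16.7) and branchial muscle-like cells (10.6). Neuron-like cells, at 6.12 (3.96 to 9.03), overlapped epithelium-like cells at 5.54 (2.77 to 9.92) there. Female-like mesothelium-like and cardiomyocyte-like mutant cells held 1 Adm UMI each.

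**Figure D1:**
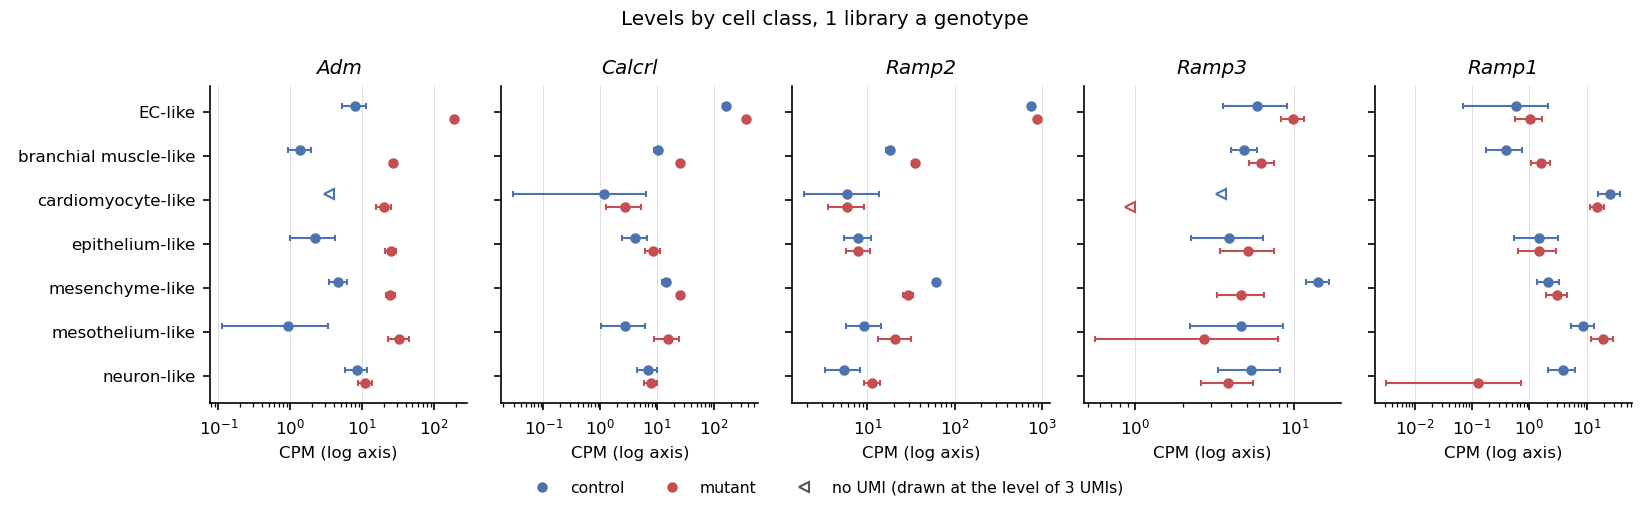
Level of each of the 5 genes in CPM (log axis) in the 7 cell classes, blue for the control and red for the mutant library, with 95% counting intervals; open triangles stand for classes with no UMI and are drawn at the level of 3 UMIs. Adm lies to the right in the mutant in all 7 classes, with overlapping intervals in neuron-like cells, Ramp2 and Ramp3 lie to the left in mesenchyme-like cells, and EC-like cells are highest for Calcrl and Ramp2.

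The levels of endothelial markers in the other classes were measured as well, since free RNA or adhering EC fragments would carry EC transcripts. In branchial muscle-like cells the summed level of the 12 endothelial markers was 0.61% of that in EC-like cells in the control and 0.96% in the mutant. Adm stood at 17.4% and 14.0% of its EC-like level, and the control EC-like level rests on 27 UMIs. In epithelium-like mutant cells the figures were 0.91% for the markers and 13% for Adm, and in cardiomyocyte-like mutant cells 0.84% and 10.5%. The markers were themselves higher in the mutant in these classes, with log2 ratios of 0.66 (0.53 to 0.79) in branchial muscle-like, 0.98 (0.33 to 1.69) in cardiomyocyte-like and 0.61 (0.32 to 0.91) in epithelium-like cells. All 12 markers had UMIs in the mutant cells of these 3 classes, so none was at 0. Calcrl and Ramp2 outside the EC-like cells lay closer to the marker share, and their values are given with it below.

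The share of cells with an Adm UMI was also higher in the mutant in each compared class. Its intervals overlapped in neuron-like cells (5.21%, 2.53 to 9.37, and 9.59%, 7.08 to 12.6). They also overlapped in mesothelium-like cells (1.43%, 0.04 to 7.70, and 15.2%, 7.51 to 26.1). The share did not rank the classes as the level did. Mutant mesothelium-like cells, next after EC-like cells by level, had a share of 15.2%. Control neuron-like cells, at the highest control level, had a share of 5.21%. In EC-like cells the share was 7.64% (4.01 to 13) in the control and 54.7% (51.0 to 58.3) in the mutant. After thinning to 5000 UMIs it was 3.25% of 154 control cells and 40.1% of 704 mutant cells. Cells with fewer than 5000 UMIs, 61 kept control and 173 kept mutant cells over all classes, were left out of the thinned values. In branchial muscle-like cells the unthinned shares were 2.82% and 23.0%, in epithelium-like cells 2.83% and 18.8%, and in mesenchyme-like cells 5.29% and 17.9%. In the unnamed globin and macrophage cluster described with Ramp1 it was 2.31% and 4.55%, at median depths of 25221 and 27322 UMIs per cell against 20203 and 17243 in EC-like cells. Within the EC-like class the mutant UMIs were spread unevenly. The median mutant cell held 1 Adm UMI and the highest 36, 102 of 739 cells (13.8%) held 10 or more, and the 74 cells with the most Adm held 50.5% of the UMIs. In the control only 12 cells held any, and a cell with 11 UMIs carried much of the total of 27. The total of a class depends on both its number of cells and the level in each. EC-like cells held 27 of the control library's 200 Adm UMIs and 2805 of the mutant library's 3975, while being 5.6% and 21.2% of the cells.

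**Figure D2:**
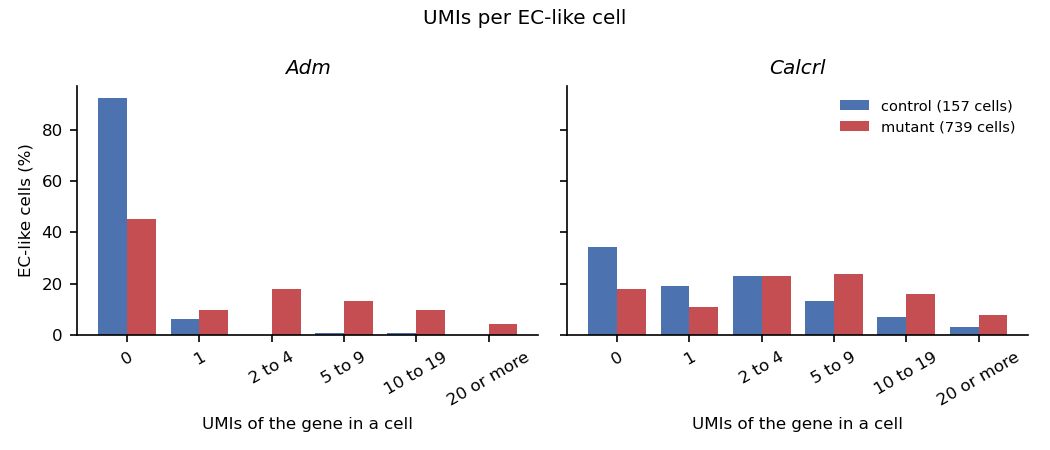
Share of EC-like cells (%) by the number of Adm UMIs (left) and Calcrl UMIs (right) in a cell, blue for 157 control cells and red for 739 mutant cells, at full depth. For Adm 92.4% of control cells and 45.3% of mutant cells lie in the bar for 0 UMIs, and for Calcrl the mutant cells are shifted to higher numbers.

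Calcrl, the receptor, was most abundant in EC-like cells of both libraries and higher there in the mutant. Its 545 control UMIs gave 159 CPM (146 to 173) and its 5358 mutant UMIs gave 364 (354 to 374), so the intervals did not overlap and the ratio was 2.29 (2.09 to 2.50). In this class 968 of the 14372 genes had a higher ratio. Among female-like cells the levels were 166 and 284, and the log2 ratio of 0.77 (0.63 to 0.92) was smaller than the 1.19 of all cells. The share of EC-like cells with a Calcrl UMI was 65.6% in the control and 82.0% in the mutant, or 41.6% and 61.1% after thinning to 5000 UMIs. In cardiomyocyte-like cells, with median depths of 14424 and 15883 UMIs, that share was 1.85% and 3.26%.

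In the other 6 classes Calcrl was at most 9.06% of its EC-like level in the same library, and it was higher in the mutant beyond counting error in 4 of them. Branchial muscle-like cells held 10.2 CPM in the control and 25.1 in the mutant (log2 ratio 1.30, 1.08 to 1.53), 6.40% and 6.90% of the EC-like level. Mesenchyme-like cells held 14.4 and 25.5 (0.82, 0.51 to 1.13), where the endothelial markers stood at 1.67% and 2.03% of their EC-like level and had a log2 ratio of 0.28 (0.15 to 0.41). The finer mesenchyme-like clusters differed in Calcrl, and their values are given below. In epithelium-like cells the log2 ratio was 1.02 (0.19 to 1.92) on 17 and 46 UMIs, and in mesothelium-like cells it was 2.48 (1.07 to 4.11) on 6 and 17 UMIs. After thinning to 5000 UMIs the intervals of these last 2 classes held 0 (0.88, -0.70 to 2.72, and 1.13, -1.10 to 3.76). In female-like cells Calcrl had a log2 ratio of 0.91 in branchial muscle-like and 3.25 in mesothelium-like cells and of 1.16 in both the epithelium-like and the mesenchyme-like class, each with an interval above 0. Neuron-like cells had a log2 ratio of 0.20 with an interval that held 0 (-0.48 to 0.91), and in cardiomyocyte-like cells only 1 and 9 UMIs were found. At resolution 0.8 the neuron clusters differed. Those led by Neurod1 and Ppp1r17 had 1 and 36 Calcrl UMIs (4.24, 1.67 to 9.58), and those led by Igfbpl1 and Dcc had 15 and 28 (-0.58, -1.53 to 0.43). Whether free RNA from EC-like cells has a part in these low levels was not tested.

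Ramp2, the partner that makes the principal adrenomedullin receptor of vessels, was likewise highest in EC-like cells but nearly level between the libraries. It had 748 CPM (719 to 777) in the control and 886 (871 to 901) in the mutant, and these intervals did not overlap at a ratio of 1.18 (1.14 to 1.24). The log2 ratio of 0.24 (0.18 to 0.31) depended on the processing: it was 0.34 with median-ratio scaling, and thinning to 5000 UMIs gave 0.10 with an interval that held 0 (-0.02 to 0.23). In female-like cells it was 0.47 (0.40 to 0.54). A Ramp2 UMI was found in 96.2% of control and 94.7% of mutant EC-like cells, with a median of 14 and 11 UMIs per cell, and in 9.26% and 7.61% of cardiomyocyte-like cells. Calcrl and Ramp2 UMIs were found together in 61.8% (53.7 to 69.4) of control and 78.8% (75.6 to 81.7) of mutant EC-like cells, against 63.1% and 77.7% for the product of their separate shares. After thinning these joint shares were 35.7% and 56.4%. Cells with UMIs of Adm, Calcrl and Ramp2 at once were 3.82% (1.42 to 8.13) of control and 45.9% (42.2 to 49.5) of mutant EC-like cells, so in the mutant library the ligand and both parts of its receptor were read from the same cells in 339 of 739. After thinning they were 0% and 23.3%. The separate mutant shares at full depth were 54.7% for Adm, 82.0% for Calcrl and 94.7% for Ramp2, so much joint detection follows from these alone.

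In the mesenchyme-like cells Ramp2 went the other way. It had 61.8 CPM (57.1 to 66.8) in the control and 29.1 (25.5 to 33.1) in the mutant, and the intervals did not overlap at a log2 ratio of -1.09 (-1.31 to -0.87). This was also seen in female-like cells (60.9 and 34.9 CPM, log2 ratio -0.80, -1.14 to -0.48). Without integration the log2 ratio was -0.59 and with classes from marker values -0.46, both with intervals below 0. The control mesenchyme-like level was 8.26% of that in EC-like cells, where the endothelial markers stood at 1.67%. By contrast Ramp2 was higher in the mutant in branchial muscle-like cells (18.0 and 35.3 CPM, log2 ratio 0.97, 0.79 to 1.15), neuron-like cells (5.31 and 11.3, 1.09, 0.39 to 1.85) and mesothelium-like cells (9.20 and 20.8, 1.18, 0.25 to 2.12), although thinning to 5000 UMIs turned the last of these to -0.041 on 9 and 8 UMIs and the neuron-like interval held 0 without the highest Scrublet scores (0.60, -0.18 to 1.43). In female-like cells these log2 ratios were 0.78, 1.07 and 1.51, with intervals above 0. In branchial muscle-like cells Ramp2 was 2.41% and 3.99% of its EC-like level, beside 0.61% and 0.96% for the endothelial markers. In epithelium-like and cardiomyocyte-like cells its log2 ratios of 0.01 (-0.68 to 0.72) and 0.02 (-1.45 to 1.79) were near 0.

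At the finer resolution of 0.8, the mesenchyme-like cells led by Twist1, Lum and Angptl1 had 68.2 CPM of Ramp2 in the control and 30.0 in the mutant (log2 ratio -1.19, -1.44 to -0.94). The cartilage genes Col9a3, Col2a1 and Matn4 led another cluster, with 42.7 and 26.1 (-0.71, -1.24 to -0.20). In that cartilage cluster Calcrl was higher in the mutant, at 15.3 and 55.5 CPM (1.86, 1.30 to 2.44). In the cells led by Twist1, Lum and Angptl1, Calcrl was at 14.1 and 16.7, and the interval held 0 (0.24, -0.16 to 0.65). In the differentiated muscle cells led by the myosin gene Myh3, with Mylpf and Tnnc2, Ramp2 was at 19.9 and 81.0 CPM (2.03, 1.66 to 2.41), and Adm was at 1.02 and 49.6 there (5.60, 4.22 to 7.5). In the cells led by Msc, Kcne1l and Myf5, muscle progenitor genes, Ramp2 was at 16.8 and 23.6 (0.49, 0.13 to 0.85) and Adm at 2.05 and 18.6 (3.18, 2.38 to 4.09). The highest mutant Adm level of the muscle clusters was in cells led by Lama2, Bmpr1b and Pax7, at 1.69 and 62.8 (5.21, 3.62 to 7.51). That control level rests on 3 UMIs, and the median depth of these cells, 8866 UMIs, was the lowest of the muscle clusters. Whether cell quality has a part in this level was not tested. Adm was at 1.78 and 24.2 in those led by Myog, Rbm24 and Myod1, and at 0.67 and 14.4 in those led by Hist1h1a. The Ramp2 log2 ratios of these clusters were 1.05, 0.87 and 0.34, the last with an interval that held 0.

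Ramp3, the other adrenomedullin partner, was sparse in every class. In EC-like cells 20 control and 144 mutant UMIs gave 5.84 (3.57 to 9.02) and 9.78 (8.25 to 11.5) CPM, and the intervals of the levels overlapped although the interval of the log2 ratio of 0.74 (0.06 to 1.5) lay just above 0. That call was lost after thinning (0.13), without the highest Scrublet scores (0.62), with at least 1000 genes and no upper limit (0.58) and without the Fgf23/Slc2a3-led sub-cluster described below (0.69), and in female-like cells the log2 ratio was 1.52 (0.60 to 2.55). Of the compared classes, mesenchyme-like cells held most in the control, 14.0 CPM (11.8 to 16.5), and 4.64 (3.27 to 6.39) in the mutant, and the log2 ratio was -1.60 (-2.16 to -1.07). In female-like mesenchyme-like cells the levels were 14.0 and 3.17, and the log2 ratio was -2.15 (-3.39 to -1.13). Most of this lay in the cells led by Twist1, Lum and Angptl1, where Ramp3 stood at 18.1 and 4.86 CPM (-1.90, -2.52 to -1.32). With classes from marker values the mesenchyme-like log2 ratio was -1.03. In the unnamed cluster with globin and macrophage genes Ramp3 had 30 control and 6 mutant UMIs (-2.44, -4.00 to -1.15). No Ramp3 UMI was found in cardiomyocyte-like cells of either library. Branchial muscle-like (log2 ratio 0.36, -0.02 to 0.74), epithelium-like (0.39, -0.54 to 1.38) and neuron-like cells (-0.47, -1.32 to 0.41) had intervals that held 0.

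Ramp1, the CGRP receptor partner, was almost absent from EC-like cells, with 2 control and 15 mutant UMIs, 0.58 and 1.02 CPM. Its UMIs lay in an unnamed cluster whose leading genes are globin, macrophage and neutrophil genes, which held 70.8% of the control library's 390 and 70.9% of the mutant library's 561. There Ramp1 stood at 60.0 CPM (53.1 to 67.5) in the control and 79.6 (72 to 87.9) in the mutant. At the finer resolution these cells divided, and the cluster led by the globin genes Hbb-bs, Hba-x and Hbb-bt held 97.0 (84.4 to 111) and 86.9 (77.8 to 96.8), which overlapped. In the cluster led by Cxcl2 and the complement genes C1qb and C1qc, found in macrophages, the levels were 25.3 (19.4 to 32.4) and 56.6 (43.9 to 71.7), which did not. Calcrl was higher in the mutant in the globin-led cells, at 17.7 (12.6 to 24.2) and 81.7 (72.8 to 91.3) CPM, where 20.7% of control and 56.7% of mutant cells had a Calcrl UMI. Cardiomyocyte-like cells held Ramp1 at 25.4 (15.9 to 38.5) and 15.4 (11.4 to 20.3), a log2 ratio of -0.72 with an interval that held 0 (-1.47 to 0.07). Mesothelium-like cells had 8.74 and 19 CPM (1.12, 0.15 to 2.09), and the interval held 0 in female-like cells (0.58, -1.19 to 2.05) and after thinning (0.54, -1.17 to 2.35). Branchial muscle-like cells held only 9 and 31 Ramp1 UMIs (2.05, 0.94 to 3.30), and neuron-like cells 15 in the control and 1 in the mutant (-4.89, -10.3 to -2.19). In female-like cells these were 7 and 24, and 15 and 0, while thinning left 3 and 4 UMIs in branchial muscle-like cells. Few cells carried these Ramp1 counts: 1 mutant branchial muscle-like cell held 13 of the 31 UMIs. The 15 control neuron-like UMIs lay in 6 cells, and 1 control cardiomyocyte-like cell held 13 of that class's 22.

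**Figure D3:**
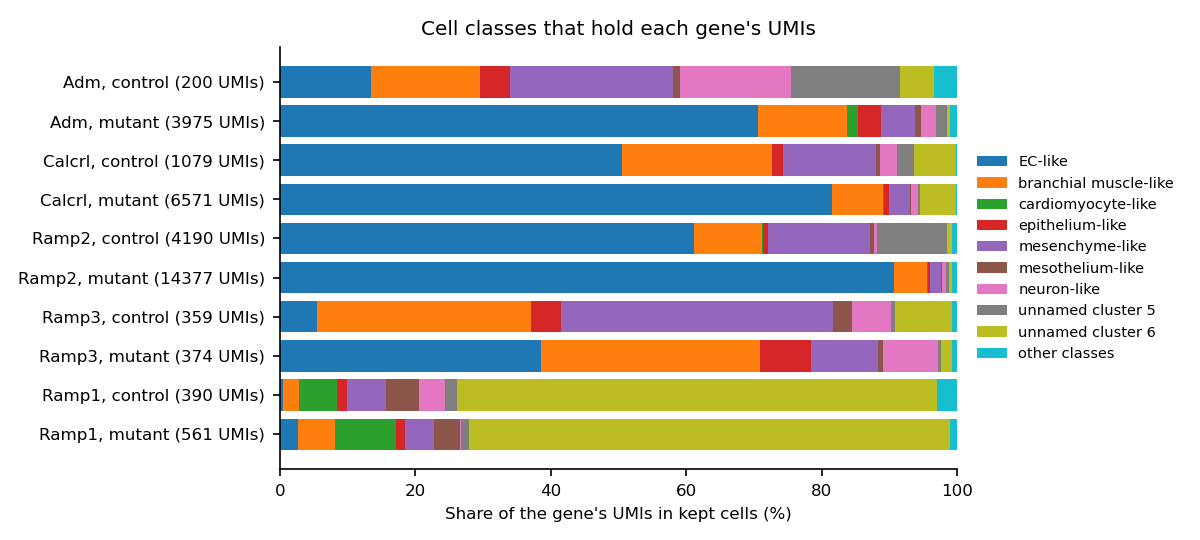
Share of each gene's UMIs (%) that lies in each cell class, for the 5 genes in the control and mutant libraries, with the total of UMIs in kept cells beside each bar. EC-like cells (dark blue) hold 61.1% and 90.7% of the Ramp2 UMIs, and the unnamed cluster 6 with globin and macrophage genes holds 70.8% and 70.9% of the Ramp1 UMIs.

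The EC-like cells were then divided into 11 sub-clusters, found without the 5 genes, and named by their leading genes or, for arterial, lymphatic and endocardial cells, by markers. They hold 1 to 39 control cells each, which limits the control values. Of the 9 sub-clusters with at least 5 control cells, 7 had at least 20 Adm UMIs. Adm was higher in the mutant beyond counting error in these 7. They held 1 to 18 control UMIs each, so they passed that minimum only through mutant cells, and the count is no support for a rise. The other 2, endocardial-like and Col1a1/Lum-led cells, held 0 control UMIs and 5 and 4 mutant UMIs. Calcrl was higher in 6 of 9 and lower in 1, and Ramp2 was likewise higher in 6 of 9 and lower in 1. In the sub-clusters where Calcrl was higher, 86.7% to 97.4% of the genes with at least 20 UMIs had a lower ratio. For Ramp2 this was 67.0% to 82.5%, so many genes had a larger ratio than Ramp2 there. The highest mutant Adm level, 471 CPM (447 to 496), was in the sub-cluster led by Fgf23 and the glucose transporter gene Slc2a3, with 1435 of the 2805 UMIs in 130 of the 739 cells. Its 6 control cells held 2 UMIs, and the ratio there was 43.1 with a counting interval on the log2 scale of 3.57 to 8.48. Next came arterial-like cells led by Esm1 and Cxcr4, genes of sprouting tip cells, at 215 CPM, then the cells led by Kirrel3 and Nhs at 189 and those led by Adamts18 and Vwf at 186, and the intervals of these overlapped. Their control cells held 2, 2 and 1 UMIs. The cells led by Slc38a5 and Oit3 held 18 of the 27 control UMIs, at 19 CPM. They stood at 126 in the mutant, a log2 ratio of 2.72 (2.04 to 3.50). Those 18 UMIs lay in 3 of the 39 control cells, a spread between cells that the counting interval does not cover.

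Adm was lower in the remaining named kinds of EC-like cell. Arterial-like cells led by Gja5 and the elastin gene Eln had 51.6 CPM in the mutant, and lymphatic-like cells had 65.6, with 1 control UMI each and log2 ratios of 3.23 (0.65 to 8.58) and 5.04 (2.51 to 10.4). The sub-cluster called endocardial-like, after the inner lining of the heart, had 8 of 10 endocardial markers raised, but its 10 leading genes also held the heart muscle genes Tnnt2, Tnni1 and Myl2. It held only 5 Adm UMIs in 47 mutant cells, 4.87 CPM, and none in 8 control cells, so no ratio could be given.

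Calcrl and Ramp2 followed another order. In the mutant Calcrl was highest in the Gja5/Eln-led arterial-like cells, at 637 CPM in the control and 1382 in the mutant (log2 ratio 1.12, 0.84 to 1.41), and in the Kirrel3/Nhs-led cells, at 352 and 1154 (1.71, 1.40 to 2.04). The Kirrel3/Nhs-led cells had median depths of 15536 and 8140 UMIs, the lowest mutant depth of the sub-clusters. Whether cell quality or intronic reads have a part in their Calcrl level was not tested. In endocardial-like cells Calcrl was lower in the mutant, 804 and 436 CPM (-0.88, -1.17 to -0.59), on 125 and 448 UMIs. The part of heart muscle RNA or of doublets in this sub-cluster was not tested. Lymphatic-like cells had 65.7 and 93.3, with an interval of the log2 ratio that held 0 (-0.09 to 1.13). Ramp2 was highest among sub-clusters with at least 5 control cells in the Gja5/Eln-led arterial-like cells, at 1417 and 1950 (0.46, 0.27 to 0.66), and lower in the mutant in the Fgf23/Slc2a3-led cells, at 902 and 503 (-0.84, -1.08 to -0.60). Thus the sub-cluster with the highest mutant Adm had a lower Ramp2 level than the control cells of the same sub-cluster, of which there were 6. Lymphatic-like cells had Ramp2 at 596 and 768 (0.37, 0.17 to 0.57).

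**Figure D4:**
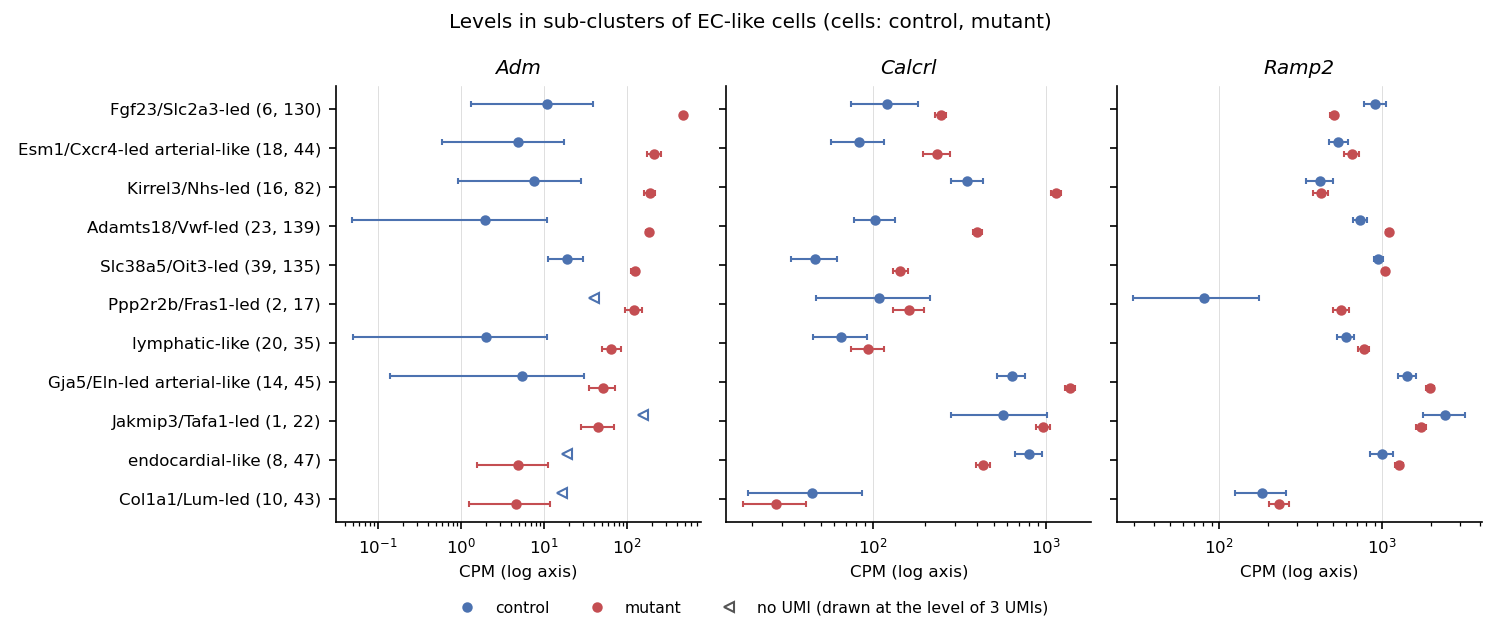
Level of Adm, Calcrl and Ramp2 in CPM (log axes) in the 11 sub-clusters of EC-like cells, ordered by mutant Adm, blue for control and red for mutant, with 95% counting intervals and the number of control and mutant cells in brackets; open triangles mark no UMI and are drawn at the level of 3 UMIs. Mutant Adm runs from 471 in Fgf23/Slc2a3-led cells to 4.62 in Col1a1/Lum-led cells, while mutant Calcrl is highest in Gja5/Eln-led arterial-like cells and control Calcrl in endocardial-like cells.

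Within the mutant library Adm also differed between female-like and male-like cells, which come from different embryos of the pool. In EC-like cells it stood at 162 CPM in female-like and 212 in male-like cells, a log2 ratio of male-like over female-like of 0.39 (0.27 to 0.51). In branchial muscle-like cells the levels were 10.6 and 39.0 (1.88, 1.53 to 2.26) and in epithelium-like cells 5.54 and 38.8 (2.81, 1.91 to 3.85). In mesenchyme-like cells they were 16.7 and 29.1 (0.81, 0.30 to 1.34). Against the female-like control cells, the female-like mutant cells had intervals of 2.48 to 3.80 around the log2 ratio in branchial muscle-like cells and of 1.18 to 2.44 in mesenchyme-like cells. Sex and the individual embryo cannot be told apart within a pool.

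**Figure D5:**
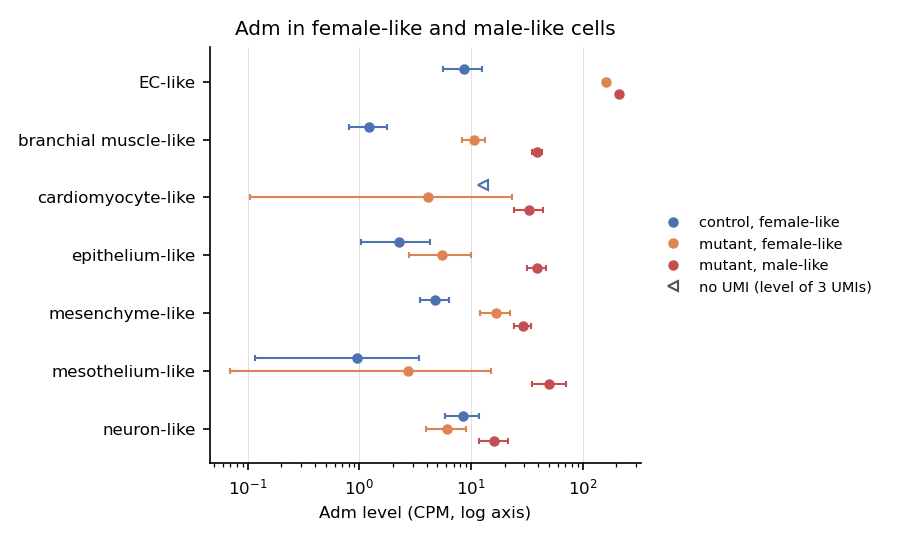
Adm level in CPM (log axis) in female-like control cells (blue), female-like mutant cells (orange) and male-like mutant cells (red) of the 7 classes, with 95% counting intervals; the open triangle marks no UMI and is drawn at the level of 3 UMIs. EC-like mutant cells stand at 162 and 212, above the control at 8.56, whereas the female-like mutant intervals overlap the control in cardiomyocyte-like, epithelium-like, mesothelium-like and neuron-like cells.

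The other genes of the pathway in EC-like cells were taken from a list of 44 genes. Of the 39 with at least 20 UMIs, 7 were higher and 14 lower in the mutant beyond counting error, and the interval of 18 held 0. The median log2 ratio of the list was -0.26, beside -0.07 over all genes, of which 16.3% were higher and 23.5% lower beyond counting error. Among the peptides, Adm2 (intermedin), which acts on the same receptors, had 0 control and 43 mutant UMIs. With 3 UMIs in place of 0 its log2 ratio was 1.74, and the lower counting limit, taken from the 0 as counted, was 1.38. Calca, which encodes CGRP and calcitonin, had 8 and 65 (log2 ratio 0.92, interval holding 0). Calcb and Iapp, which encode beta-CGRP and amylin, and the calcitonin receptor gene Calcr had fewer than 20 UMIs each. Of the receptors and decoys, the scavenger receptor gene Ackr3 was lower, at 65.7 and 35.7 CPM (-0.88, -1.11 to -0.65), and Gpr182 was at 28.3 and 26.2 (-0.12). Pam, the enzyme that amidates the peptide and so makes it active, was lower at 273 and 175 (-0.64, -0.75 to -0.53).

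Downstream of the receptor, the stimulatory G protein gene Gnas was lower at 5280 and 3858 CPM (-0.45, -0.48 to -0.43). The adenylyl cyclase gene Adcy7, on 10 and 15 UMIs, had the lowest log2 ratio among the listed genes with at least 20 UMIs (-1.52, -2.77 to -0.20). The protein kinase A subunit gene Prkar2b was at 28.0 and 12.9 CPM (-1.12, -1.48 to -0.75). Phosphodiesterase genes, whose enzymes break down cyclic AMP, held the highest ratios after Adm2 among the listed genes whose interval lay above 0: Pde4b was at 137 and 259 (0.92, 0.78 to 1.06) and Pde10a at 40.3 and 71.3 (0.82, 0.57 to 1.09). Of the cyclic AMP effectors Rapgef4, an exchange factor for Rap1, was higher at 41.5 and 72.1 (0.80, 0.54 to 1.06), as was the arrestin gene Arrb2 at 25.1 and 41.0 (0.71, 0.38 to 1.05).

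Genes with a pattern like that of Adm were ranked over the 14 class-by-library points among 11311 genes, by Pearson's r of log2(CPM + 1). The closest were Egln3 (r = 0.93), a prolyl hydroxylase gene, Ankrd37 (0.92), Pfkfb3 (0.89), a regulator of glycolysis, Gm15283 (0.87) and Jmjd6 (0.86). For Calcrl the closest gene was Ramp2 (0.95), followed by Plau (0.94), which encodes urokinase, Cd40 (0.93), Dock6 (0.93) and Pgm2 (0.92). For Ramp2 they were Calcrl (0.95), the ETS factor gene Elk3 (0.95), the apelin gene Apln (0.94), the BMP receptor gene Acvrl1 (0.94) and Cd40 (0.94). The points share classes and libraries, so these values are a description. Across the 739 mutant EC-like cells, Adm went with Slc2a1 (r = 0.63), the glucose transporter GLUT1, Bnip3 (0.61), a mitophagy receptor gene, Igfbp3 (0.61), Ankrd37 (0.59) and Egln3 (0.57). In the same cells r was 0.01 with Calcrl, -0.14 with Ramp2, 0.14 with Ramp3 and 0.08 with the log of the cell's total UMIs.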

How the data were processed

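The authors aligned reads to GRCm38 and counted with Cell Ranger 7.1.0, per the submitters' processing notes, and deposited raw UMI counts per gene and called cell; whether intronic reads were counted and the annotation release are not given in the sources used here. As in the study's methods, a cell was kept if it had over 2000 genes, under 9000 genes and under 10% mitochondrial UMIs. The libraries were integrated by canonical correlation with cell-cycle scores regressed out (Seurat 5.3.0, R 4.3.3) on 2000 variable genes, leaving out the 49 genes of the members and the pathway list, with 30 components and 20 neighbours. Resolution 0.3 gave 15 clusters. A cluster was named "X-like" where at least 3 markers were raised 2-fold and its leading genes did not go against the name. EC-like cells were divided with 20 components at resolution 1.0. Names are rebuilt and may differ from those of the study. Doublets were kept: Scrublet (scanpy 1.11.5) called 0 control and 1 mutant cell and so did not work, and removing the highest scores was an alternative.

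Levels are the summed UMIs of a gene in a class of a library per 1000000 UMIs of that class (CPM), which does not correct for gene length. The 95% intervals of levels are exact Poisson, those of shares are Clopper-Pearson and those of ratios are exact binomial, conditional on the summed count, and they cover counting error only. A fold against 0 UMIs sets that count to 3 UMIs and is not itself a lower limit, while the interval uses the 0 as counted. Counts over genes use those with at least 20 UMIs. On simulated counts for 14372 genes in EC-like cells, 200 of them changed, the intervals held the true ratio for 98% of changed and 95.6% of unchanged genes. Those counts were drawn with counting error alone and no spread between cells or embryos, so this checks only the calculation. Named genes were the 5 members, the 3 highest and 3 lowest pathway genes and further listed genes described by role, and the 5 genes most like Adm, Calcrl and Ramp2 over class-by-library points or, for Adm, over mutant EC-like cells; 1 gene that this rule names is not reported here. The members, marker and pathway lists were chosen with earlier results of these data known, and the EC-like sub-clusters, the finer clusters and the names of 2 unnamed clusters after seeing the data. Gene positions are from GENCODE vM21.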

Additional observations from a re-analysis of the deposited data

Results flagged for a closer look

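In 7 cases, over the classes, unnamed clusters and EC-like sub-clusters, a member was lower in the mutant in a group of cells beyond counting error while it was higher over all EC-like cells. With 1 library per genotype the difference between the groups was not tested. In mesenchyme-like cells the log2 ratio of mutant over control was -1.09 for Ramp2, against 0.24 in EC-like cells, and -1.60 for Ramp3, against 0.74. In unnamed clusters it was -0.63 for Ramp2 in the cells led by Adh1, Wnt2 and Tbx4 and -2.44 for Ramp3 in those with globin and macrophage genes. Within the EC-like class, Calcrl had -0.88 in endocardial-like cells, against 1.19 over the class, with 8 control cells and heart muscle genes among the leading genes. Ramp2 had -0.84 in Fgf23/Slc2a3-led cells, with 6 control cells, and -0.49 in Jakmip3/Tafa1-led cells, with 1 control cell.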

How the results depend on the processing

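No paired analysis was possible because each genotype has 1 library and no result comes from a test between samples. Each log2 ratio was recomputed without the highest Scrublet scores, without integration, at resolution 0.8, with classes from marker values, with at least 1000 genes and no upper limit, with a mitochondrial limit of 5%, with TMM (edgeR 4.0.16) or median-ratio scaling, as a mean over cells, after thinning to 5000 UMIs and in female-like cells. Of 337 values for 30 ratios, 300 stayed inside the counting interval first given, 36 moved outside it and 1 reversed a ratio whose interval had excluded 0: Ramp2 in mesothelium-like cells was -0.041 after thinning, on 9 and 8 UMIs. A further 22 values changed the sign of a ratio whose interval already held 0, and in 13 values an interval that had excluded 0 came to hold it. In EC-like cells, Adm was 3.93 without the Fgf23/Slc2a3-led sub-cluster, an alternative chosen after seeing the data. Calcrl was 1.36 after thinning and 0.77 in female-like cells. Ramp2 was 0.32 with TMM, 0.34 with median-ratio scaling, 0.10 as a mean over cells, 0.10 after thinning with an interval that held 0 (-0.02 to 0.23), 0.47 in female-like cells and 0.42 without the Fgf23/Slc2a3-led sub-cluster, and Ramp3 ran from 0.13 after thinning to 1.52 in female-like cells. Adm in branchial muscle-like cells was 5.53 after thinning and 3.12 in female-like cells. Cardiomyocyte-like control cells had 0 Adm UMIs. With 3 UMIs in place of 0, the log2 ratio there was 2.15 without high Scrublet scores and 0.86 after thinning. In mesothelium-like cells thinning left no control Adm UMI, and with 3 UMIs in place of 0 the log2 ratio was 2.00. In female-like cells Adm was 1.29 in epithelium-like, 1.81 in mesenchyme-like and -0.47 in neuron-like cells, and could not be given in cardiomyocyte-like and mesothelium-like cells, where both libraries had 3 UMIs or fewer. Ramp2 in mesenchyme-like cells was -0.59 without integration and -0.46 with classes from marker values, and Ramp3 there was -1.03 with classes from marker values. The cause of these shifts was not tested. Depth limits Ramp1 and Ramp3 most: 2 and 15 Ramp1 UMIs and 20 and 144 Ramp3 UMIs lay in EC-like cells.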

Other observations

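Among the cells outside the 7 compared classes, a cluster led by Adh1, Wnt2 and Tbx4, with 360 control and 89 mutant cells, was left unnamed. Adm stood there at 3.67 CPM (2.51 to 5.18) in the control and 30.2 (23.3 to 38.6) in the mutant, a log2 ratio of 3.04. Ramp2 went the other way, with 49.7 and 32.1 CPM, and Calcrl had 3.09 and 12.7. Neural crest-like cells, with 53 control and 23 mutant cells, held Adm at 6.45 (2.37 to 14.0) and 16.6 (6.67 to 34.2), and these intervals overlapped.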
